A study of Mus musculus with 32 samples.

Results

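The genes Pmch, Hcrt, Avp, Oxt and Trh encode peptide precursors that are best known from hypothalamic neurons, and all 5 were measured here in mouse amygdala. They were taken by symbol from the exon count tables, as 5 of 25239 genes. They were chosen by their measured levels and their stress differences in the same libraries, in which Pmch stood out under stress and varied widely. Their levels and their differences under stress are therefore given as a description, with no test. All 5 passed the filter on low counts in each fit.

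Bilateral amygdala was taken from wild type (WT) mice that had received 4-thiouridine (4sU, 100 mM in DMSO) or DMSO alone in the amygdala 24 h before RNA extraction. 4sU is a uridine analogue that new RNA takes up, and after alkylation it is read as a T-to-C conversion. Mice were at baseline (5 libraries with 4sU, 4 with DMSO), after acute stress (5 and 5) or after chronic stress (4 and 3), and 3 auditory cortex libraries with 4sU and 3 without were also sequenced. The labels give no strain, age or stress procedure, and they do not say that replicates are separate animals, so errors measure the spread between these libraries, which may be technical. Libraries are numbered within each group as the labels number them.

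Each of these genes is translated as a prohormone that is cut and modified on its way to the secretory granule. Pmch gives melanin-concentrating hormone and Hcrt gives the orexins (hypocretins). Both peptides are made by neurons of the lateral hypothalamus that send long axons through much of the forebrain, the amygdala included. Pmch neurons are known for roles in feeding and sleep, and Hcrt neurons for wakefulness. Avp (vasopressin) and Oxt (oxytocin) are made by large neurosecretory cells of the paraventricular and supraoptic nuclei, and Avp also by scattered cells of the medial extended amygdala. Trh gives thyrotropin-releasing hormone and is expressed in several forebrain regions besides the hypothalamus. The lateral hypothalamus lies medial to the amygdala. Transcripts measured in tissue come mostly from cell bodies.

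All 5 are short genes (mm10 coordinates). Pmch spans chr10:88091072-88092374 on the plus strand and Hcrt chr11:100761693-100762931 on the minus strand. Oxt (chr2:130576169-130577053, plus strand) and Avp (chr2:130580620-130582588, minus strand) lie tail to tail with 3566 bases between them. Trh spans chr6:92242061-92244650 on the minus strand. Exonic lengths are 748 bases for Pmch, 584 for Hcrt, 611 for Avp, 540 for Oxt and 1384 for Trh. The 30 bases from 36 to 7 before each annotated start (RefSeq, GRCm38.p6, gene strand, 5′ to 3′) are shown because each holds an AT-rich element, marked in capitals.
Pmch: cagaaagtaTATAAaggtggggatcattta
Hcrt: catTATAAacccctggcccctggaagcgag
Trh: ctcgagcgcaTATAAgcctcggcccctccg
Avp: cctcctagggaacacctgcagaCATAAAta
Oxt: gtgcccagaCATAAAaaggtcggtctgggc

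Pmch, Hcrt and Trh carry TATAA, and Avp and Oxt, the pair of neighbouring genes, carry CATAAA. These letters and this window were settled on after the sequences had been read. Between 50 and 5 bases before the start, on the gene's strand, TATAA occurs in 4.925% of 32851 RefSeq promoters and CATAAA in 1.342%. TGTTCT (glucocorticoid receptor binding) and TGACG (CREB binding) were also searched, on both strands and over the whole promoter window from 250 bases before the start. Each has 1 match, in Trh only, and they occur in 18.97% and 20.81% of all promoters.

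Pmch overlaps another gene: 434 of its 748 exonic bases (58.02%) lie within the last exon of Parpbp, a gene read from the other strand. The strand setting of the counting is not stated in those sources that were used, and reads from the shared bases could be lost or assigned to either gene. Exon counts of Parpbp ranged from 2 to 19 over the 26 libraries and did not follow those of Pmch (Pearson r = 0.166, Spearman rho = 0.036). Reads in the 3′ UTR interval of Parpbp, which spans Pmch exons 2 and 3, did follow the Pmch exon counts (r = 0.977, rho = 0.986). They reached 1871 in chronic 4sU library 1, where Parpbp itself had 6 exon counts.

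Amygdala libraries held 16150316 to 21228741 exon counts. The amygdala markers (10 genes, among them Prkcd, Rspo2 and Tshz1) had a mean of 3.97 to 5.25 log2 CPM (counts scaled to a fixed library size) in every library. Libraries fell into 2 sets that follow neither stress nor injection alone. In the 10 baseline and acute 4sU libraries, 3′ UTR reads came to 37.05 to 39.69 per 100 exon counts, and in the other 16 to 44.65 to 53.39. The mean of 12 myelin genes parted the same sets, with at most 8.28 log2 CPM in the former and at least 8.81 in the latter. Comparisons of 4sU with DMSO at baseline and after acute stress, and of chronic with baseline 4sU libraries, cross this division and cannot be told apart from it. Among the latter, 6 libraries were low in 10 glutamatergic markers (acute DMSO 1, 3 and 4, chronic 4sU 3 and 4, chronic DMSO 1), and values without them were computed. In bulk tissue, fewer cells of a type and less RNA per cell cannot be told apart.

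Pmch was at 1.77 CPM or less in all baseline libraries and reached 87.9 CPM in the chronic 4sU group. Baseline 4sU libraries 1 to 5 had Pmch levels of 0.179, 1.32, 1.69, 0.653 and 1.77 CPM, and baseline DMSO libraries 1 to 4 had 0.226, 0.656, 0 and 0.242 CPM. After acute stress, the 4sU libraries had 5.73, 8.74, 0.386, 0.0529 and 1.22 CPM and the DMSO libraries 5.54, 1.9, 0.887, 4.65 and 16.5 CPM. Acute 4sU libraries 1 and 2 were above every baseline library, libraries 3 and 5 were inside the baseline range, and library 4 was below all baseline libraries but DMSO library 3. Chronic 4sU libraries had 87.9, 9.14, 72.6 and 15.6 CPM, and chronic DMSO libraries 3.07, 0.166 and 0.620 CPM. Chronic 4sU libraries 1 and 3 stood far above the rest and held 65.9% of all 4174 Pmch counts in the amygdala. Within the acute 4sU group the highest library exceeded the lowest 165.3-fold, although the lowest rests on 1 count.

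Hcrt had its high values in some of the same libraries. Baseline levels of Hcrt were 0.119, 0.422, 0.640, 0.178 and 0.0610 CPM with 4sU and 0.0564, 0, 0.0567 and 0.121 CPM with DMSO. After acute stress they were 1.78, 1.87, 0.338, 0.211 and 0.0557 CPM with 4sU and 0.173, 0.115, 0, 0 and 1.49 CPM with DMSO. High libraries were acute 4sU 1 and 2, which were also the 2 highest of that group for Pmch, and acute DMSO 5, the highest of its group for Pmch. Chronic 4sU libraries had 11.7, 1.16, 8.87 and 1.18 CPM, with libraries 1 and 3 high as for Pmch, and chronic DMSO libraries 0.116, 0.111 and 0 CPM. These levels rest on few reads: Hcrt had 537 counts in all 26 libraries, 73.0% of them in the chronic 4sU group, and at most 203 in a library. In the acute fit it passed the filter through 4 libraries (baseline 4sU 3, acute 4sU 1 and 2, acute DMSO 5), and it failed when any of them was left out.

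Avp was higher in most 4sU libraries than in the DMSO libraries, at baseline and after acute stress. With 4sU, baseline libraries had 2.80, 6.57, 6.11, 14.9 and 6.22 CPM and acute libraries 9.51, 37.7, 3.14, 6.35 and 4.84 CPM. DMSO libraries had 2.42, 2.29, 1.48 and 2.06 CPM at baseline and 1.44, 2.65, 3.08, 2.15 and 3.65 CPM after acute stress. At baseline the 4sU libraries lay wholly above the DMSO libraries, as in 22.4% of 16310 genes. Acute 4sU library 2 was the highest of all 26, with 29.6% of all 2444 Avp counts. After chronic stress Avp stood at 5.83, 1.46, 4.38 and 1.77 CPM with 4sU and at 2.14, 0.222 and 0.959 CPM with DMSO. Chronic 4sU libraries 1 and 3, which led for Pmch and Hcrt, were again the 2 highest of their group, but inside the range of baseline 4sU.

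Oxt had the fewest counts of the 5, 268 in all. Baseline 4sU libraries had 0.238, 0.783, 1.63, 0.178 and 0.671 CPM, and baseline DMSO libraries 0.113, 0.273, 0 and 0.121 CPM. After acute stress Oxt stood at 1.89, 2.65, 0.627, 0.529 and 0.390 CPM with 4sU and at 0.577, 0.864, 0, 0.407 and 0.774 CPM with DMSO. Acute 4sU libraries 1 and 2 were the 2 highest of all 26, as they were within their group for the other 3 peptides described so far. In chronic 4sU libraries Oxt was at 0.981, 0.183, 0.710 and 0.118 CPM, with libraries 1 and 3 high again, and in chronic DMSO libraries at 0.174, 0.0555 and 0 CPM.

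Trh was the most even of the 5, within 2.56 to 14.0 CPM in every library. At baseline it stood at 2.98, 14.0, 5.93, 3.68 and 2.56 CPM with 4sU and at 3.27, 4.32, 4.09 and 4.42 CPM with DMSO. Acute libraries had 2.81, 6.09, 3.96, 4.5 and 3.78 CPM with 4sU and 5.94, 9.51, 8.99, 6.98 and 4.86 CPM with DMSO. Chronic libraries had 3.98, 4.57, 5.86 and 5.79 CPM with 4sU and 7.24, 5.27 and 4.62 CPM with DMSO. One library, baseline 4sU 2, was more than 2-fold above the next of its group. The libraries with most Pmch and Hcrt were in the middle of the range for Trh, and the acute and chronic DMSO libraries lay wholly above the baseline DMSO libraries.

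**Figure D1:**
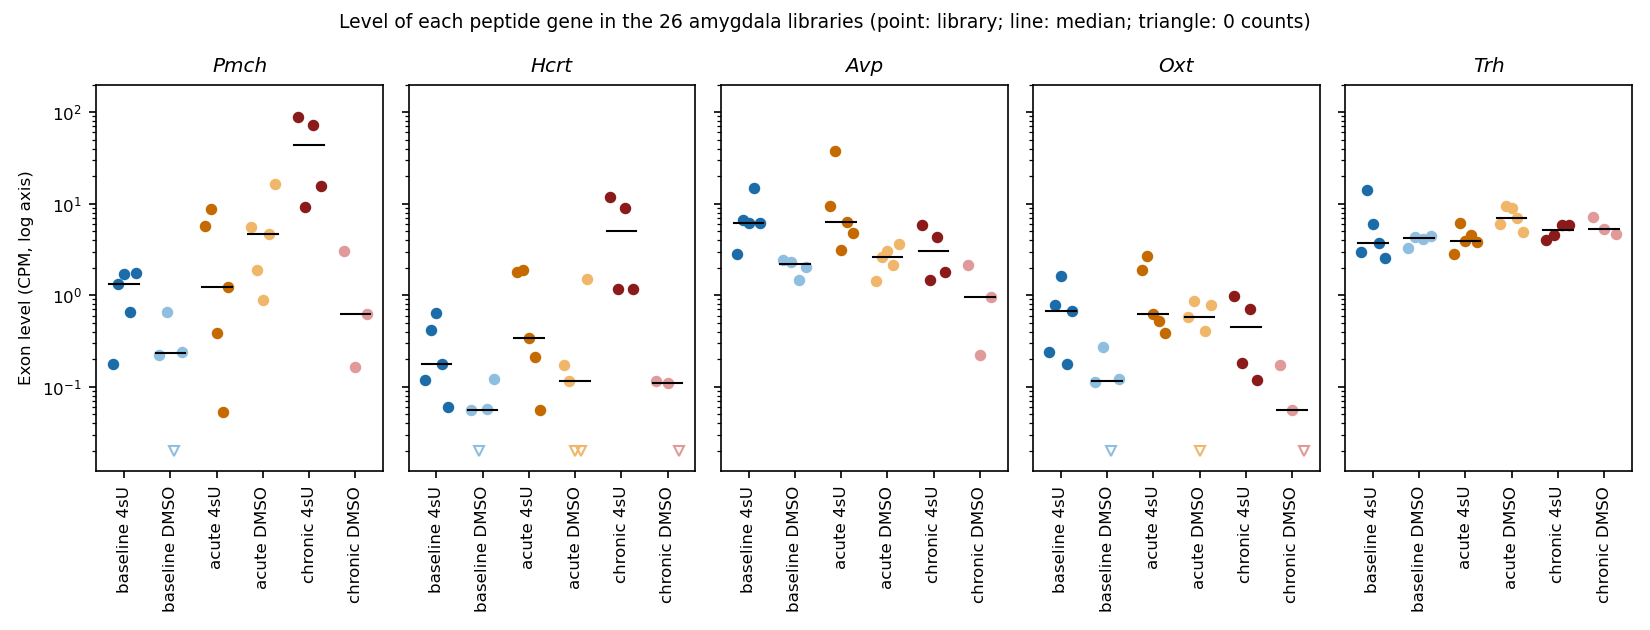
Level of each peptide gene (CPM, log axis) in the 26 amygdala libraries, by group. Points are libraries, lines are group medians, and open triangles at the foot mark libraries with 0 counts. The 4 chronic 4sU libraries sit between 9.14 and 87.9 CPM for Pmch, while Trh stays within 2.56 to 14.0 CPM in all groups.

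The order of group medians differed between the peptides. For Pmch it ran from chronic 4sU (44.1 CPM) through acute DMSO (4.65), baseline 4sU (1.32), acute 4sU (1.22) and chronic DMSO (0.620) to baseline DMSO (0.234). Hcrt ran from chronic 4sU (5.03 CPM) and acute 4sU (0.338) to baseline DMSO (0.0566). Avp was led by acute 4sU (6.35 CPM) and baseline 4sU (6.22), and Oxt by baseline 4sU (0.671 CPM) and acute 4sU (0.627). Trh was led by acute DMSO (6.98 CPM) and lowest in baseline 4sU (3.68). Chronic DMSO was lowest for Avp (0.959 CPM) and Oxt (0.0555). In all 5 genes every pair of neighbours in this order had overlapping ranges.

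Compared per kilobase of exon, the rank of the peptides also changed between groups. At baseline with 4sU the mean level was 12 ± 7.38 CPM per kb for Avp, 4.21 ± 3.42 for Trh, 1.5 ± 0.918 for Pmch, 1.30 ± 1.08 for Oxt and 0.486 ± 0.414 for Hcrt (SD, n = 5). In the chronic 4sU group Pmch led with 61.9 ± 53.2 CPM per kb, followed by Hcrt (9.81 ± 9.23), Avp (5.50 ± 3.44), Trh (3.65 ± 0.670) and Oxt (0.922 ± 0.772; SD, n = 4). Pmch moved from the middle of the order to its top, and Hcrt from last to second, with SDs close to their means.

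Libraries of one group differed in these genes far more than in most genes. The SD of log2 CPM around the group means was 1.665 for Pmch, the 8th largest of 16310 genes. It was 1.287 for Hcrt, 1.039 for Oxt and 0.945 for Avp, against a median of 0.204 over all genes and a 99th percentile of 0.918. Trh had an SD of 0.527, larger than that of 89.15% of genes. Spread is larger in low genes, and the plot of spread against level sets each peptide against genes of its own level. Genes outside the group help to read the scale, and were chosen after their values were seen. Peptide genes of local amygdala neurons included even ones (Sst 0.217, Crh 0.301) and uneven ones (Grp 1.31, Cort 0.992, Cck 0.971). The glutamatergic marker Slc17a7 (1.27) and the choroid plexus gene Ttr (2.066, the largest of all) also varied widely, and the glucocorticoid-induced gene Fkbp5 did not (0.241).

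**Figure D2:**
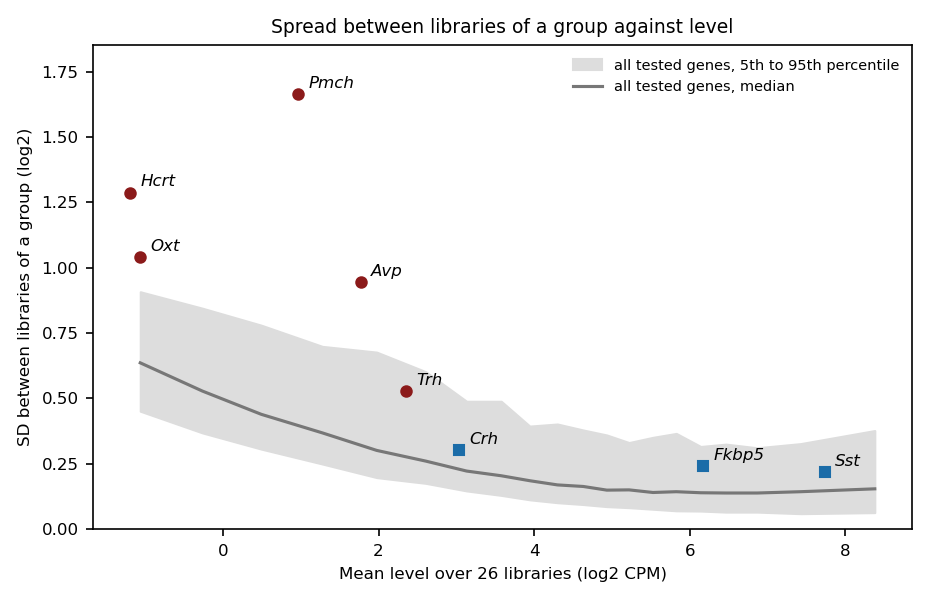
SD of log2 CPM between libraries of a group (vertical axis) against the mean level over 26 libraries (horizontal axis). The band spans the 5th to 95th percentile of all tested genes in 20 bins of level, circles are the 5 peptides and squares are 3 other genes for comparison. Pmch, Hcrt, Oxt and Avp lie above the band and Trh inside it.

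Pmch, Hcrt, Oxt and Avp tended to be high in the same libraries of a group, and Trh did not follow them. Over the 26 libraries the log2 levels of Pmch and Hcrt had a Pearson r of 0.786 (Spearman rho 0.592), and 0.623 without the 2 libraries farthest from the median of Pmch. The chronic 4sU libraries stand apart, so deviations from the group means were compared as well. There r was 0.667 for Pmch and Hcrt, 0.77 for Pmch and Oxt, 0.731 for Hcrt and Oxt, and 0.669 for Pmch and Avp. Avp and Oxt, neighbours on chromosome 2 that are made by different cells of the same nuclei, had an r of 0.684 over all libraries and 0.431 within groups. Trh correlated with the other 4 at 0.008 to 0.193 within groups. All points share their library and its depth, and n is 26 throughout.

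Transcription factors that mark hypothalamic neurons moved with Pmch. The list holds 18 such genes, of which 12 passed the filter in the acute fit and 13 in the chronic fit. The mean level of 13 of them was 1.58 to 2.22 log2 CPM in the 4 chronic 4sU libraries, 0.568 to 1.19 in baseline 4sU, 1.01 to 1.26 in baseline DMSO, 0.431 to 1.41 in acute 4sU, 0.830 to 1.73 in acute DMSO and 1.13 to 1.38 in chronic DMSO. Across the 26 libraries this mean had an r of 0.82 with Pmch (rho 0.733), and 0.802 within groups. Without the 2 libraries farthest from the median of the factor mean, r over the libraries was 0.746. The filter can favour factors that are high in some groups, so all 18 were also averaged without it, on the log2(CPM + 0.1) scale, after the first values were seen. Then r was 0.859 (0.793 within groups). The library with the highest mean, chronic 4sU 1 (2.22), was also the highest for Pmch and Hcrt, and the library with the lowest, acute 4sU 4 (0.431), had a single Pmch count. For the other peptides the r within groups was 0.515 (Hcrt), 0.594 (Avp), 0.44 (Oxt) and -0.032 (Trh). A second list holds 14 other hypothalamic peptides, of which 6 passed the filter. Its mean followed Pmch less, with an r of 0.287 (0.38 within groups), and for Hcrt r was 0.22 (-0.038 within groups). The part of either list in the peptides' levels was not tested.

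Markers of the region itself and of its neighbours also differed between libraries. The mean of the 10 amygdala markers was 4.93 to 5.25 log2 CPM in baseline DMSO and 4.94 to 5.19 in baseline 4sU libraries, 3.97 to 4.62 in acute DMSO and 4.06 to 4.72 in chronic 4sU libraries. It was 4.72 to 5.20 in acute 4sU and 4.44 to 4.90 in chronic DMSO libraries. Acute DMSO and chronic 4sU, the groups with the highest median of Pmch, thus lay wholly below both baseline groups for the amygdala markers, and so did chronic DMSO, where the median of Pmch was 0.620 CPM. Over the 26 libraries, the r of Pmch with this mean was -0.524 (-0.232 within groups), with 10 thalamic genes 0.537 (0.154), with 12 myelin genes 0.412 (0.2), with 10 choroid plexus genes -0.382 (-0.219) and with 10 striatal genes -0.292 (-0.07). Their part in the peptides' levels was likewise not tested.

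The glucocorticoid-induced genes, a 10-gene list that served as a measure of the acute stress response, did not track Pmch. Their mean was 6.11 to 6.75 log2 CPM in all 10 acute libraries and at most 5.82 in every other library. Its r with Pmch was 0.145 over all libraries and -0.082 within groups, and for Hcrt 0.021 and 0.104. Chronic 4sU library 1, with the most Pmch, had a mean of 5.01, inside the baseline range. Acute 4sU library 4, with a mean of 6.19, had the lowest Pmch level of any library with a count. Of the 10 genes edgeR called 9 higher in acute 4sU and 9 in acute DMSO mice (0.206% and 1.41% of all genes). The list was drawn up with earlier results of these data known, so these acute calls are no test of it. After chronic stress it called 2 higher and 1 lower with 4sU (26.9% and 29.6% of all genes) and none with DMSO. The list therefore gives no measure of chronic stress, and the part of stress in the Pmch levels was not tested.

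**Figure D3:**
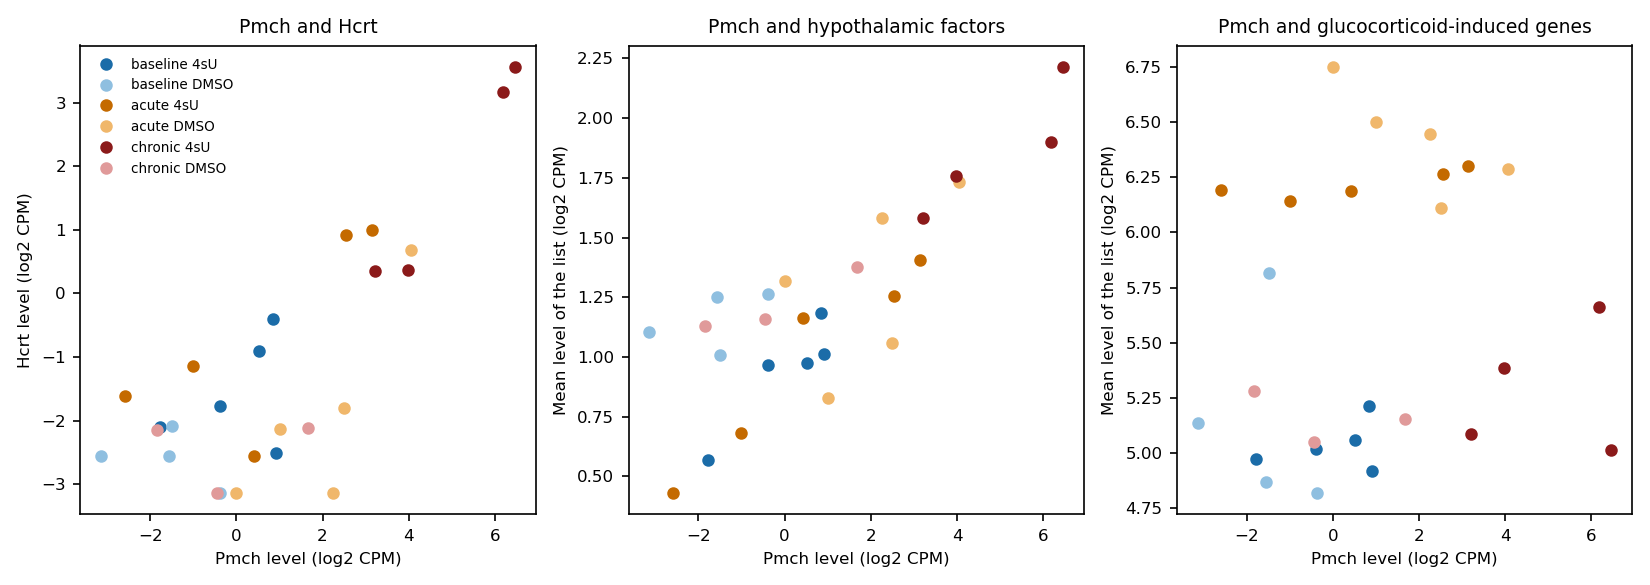
Pmch level (log2 CPM, horizontal axes) in the 26 amygdala libraries against Hcrt (left), the mean of the hypothalamic transcription factors (middle) and the mean of the glucocorticoid-induced genes (right), coloured by group. The chronic 4sU libraries lie at the upper right of the left and middle panels. In the right panel all 10 acute libraries lie at or above 6.11 whatever their Pmch level.

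Relative to baseline, Pmch and Hcrt had positive differences in both injections and both forms of stress, with errors that were large outside the chronic 4sU group. Differences are log2 fold changes ± SE from edgeR fits of all genes. After acute stress Pmch differed by 1.51 ± 0.90 with 4sU and 4.36 ± 1.17 with DMSO, and Hcrt by 1.55 ± 0.91 and 2.54 ± 1.47. After chronic stress Pmch differed by 5.33 ± 0.81 with 4sU and 2.13 ± 1.65 with DMSO, and Hcrt by 4.27 ± 0.76 and 0.37 ± 2.23. The chronic 4sU values compare libraries from either side of the division in 3′ UTR reads and myelin genes, and the other 3 comparisons do not. Counted in 3′ UTR reads, the Pmch difference in chronic 4sU libraries was 3.62 ± 0.71. That count leaves out reads assigned to the overlapping Parpbp interval, which held 4452 in the 4sU libraries against 422 in the Pmch interval. Without chronic DMSO library 1, Pmch in the chronic DMSO comparison stood at 0.45 ± 2.38 and Hcrt at -0.03 ± 2.84.

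Avp and Oxt had positive differences after acute stress and negative ones after chronic stress, most of them smaller than 2 SE. Avp differed by 0.75 ± 0.52 with 4sU and 0.34 ± 0.66 with DMSO after acute stress, and by -1.14 ± 0.52 and -0.90 ± 0.73 after chronic stress. Without acute 4sU library 2, the first of these was -0.30. Oxt differed by 0.79 ± 0.62 and 2.00 ± 0.97 after acute stress, and by -0.50 ± 0.65 and -0.70 ± 1.37 after chronic stress. Without baseline 4sU library 3, its chronic 4sU value was 0.08. For Trh the values were -0.46 ± 0.36 and 0.87 ± 0.38 after acute stress and -0.23 ± 0.41 and 0.51 ± 0.46 after chronic stress, and both 4sU values turned positive (0.16 and 0.39) without baseline 4sU library 2. All comparisons of an injection share their baseline libraries.

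**Figure D4:**
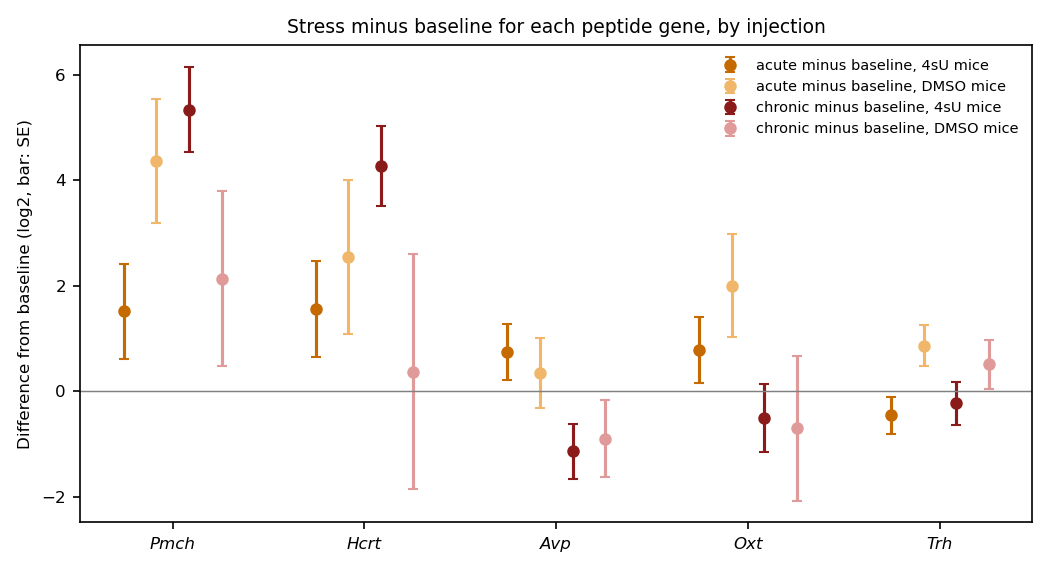
Difference of each peptide gene from baseline (log2 fold change, vertical axis) after acute or chronic stress, by injection. Points are estimates from the fits of all genes and bars are their SE. Pmch in chronic 4sU mice is highest at 5.33, and the bars of Avp, Oxt and Trh lie within about 3 log2 units of 0.

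Ranges of baseline and stressed libraries did not overlap for Pmch and Trh in acute DMSO, where 5.4% of 16310 genes did not overlap, for Pmch and Hcrt in chronic 4sU (44.4% of all genes), and for Trh in chronic DMSO (7.9%). None of the 5 was without overlap in acute 4sU (2.12% of all genes). Since these contrasts chose the genes, nothing further is read from this.

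The injection itself was compared within each state, a contrast the choice of genes did not use, although the same libraries enter it. A gene is called at an adjusted p under 0.05 (edgeR quasi-likelihood test, Benjamini-Hochberg over all genes). Avp was higher in 4sU than in DMSO mice at baseline, by 1.83 ± 0.63 on the log2 scale (edgeR adjusted p = 0.026). There 5 of 5 4sU libraries lay above every DMSO library, as in 22.4% of all genes. The call was lost in 4 of 9 fits without 1 library (edgeR adjusted p up to 0.0828). Avp was also higher after acute stress, by 2.24 ± 0.57 (edgeR adjusted p = 0.00313), with 4 of 5 above. That value was 1.19 without acute 4sU library 2 and remained called. Oxt stood 2.40 ± 0.94 higher at baseline, with 3 of 5 above every DMSO library, and is given with no test. Baseline DMSO libraries had 0 to 5 Oxt counts, under the filter's minimum count of 10, and mainly 4sU libraries carried Oxt through the filter. The Avp call at baseline stands beside 41.9% of all genes (21.1% higher, 20.7% lower), and that after acute stress beside 48.3% (23.5% higher, 24.8% lower). Both states cross the library division. The acute Avp difference was 1.96 (edgeR adjusted p = 0.0617) once the 6 libraries poor in glutamatergic markers were set aside.

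After chronic stress, where 4sU and DMSO libraries lie on the same side of that division, Pmch and Hcrt had the largest values of the 5. Their high levels in the chronic 4sU libraries were known when they were chosen, and those levels also carried Hcrt through the filter, so their differences are given with no test. Pmch was 5.17 ± 0.98 higher with 4sU and Hcrt 6.11 ± 1.15, with all 4 chronic 4sU libraries above all 3 DMSO libraries for each, as in 4.4% of all genes. The Hcrt value rests on 4 counts in the DMSO group. Oxt stood at 2.61, also given with no test. Its DMSO libraries had at most 3 counts after chronic stress and 5 at baseline, so only 4sU libraries carried it through the filter. Of the genes left, Avp stood at 1.60 (edgeR adjusted p = 0.524) and Trh at -0.19 (adjusted p = 0.982). edgeR called 0.137% of all genes in this contrast (0.0249% higher, 0.112% lower). Trh was not called in any state, with 0.54 at baseline (adjusted p = 0.274) and -0.78 after acute stress (adjusted p = 0.0769).

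Receptors for all 5 peptides were detected. Of 9 receptor genes 7 passed the filter. Avpr1b, the pituitary vasopressin receptor, and Avpr2, the kidney one, did not, with at most 0.113 and 0.620 CPM in any library. Mchr1, the receptor of melanin-concentrating hormone, had group means of 19.0 to 41.8 CPM. Oxtr, the oxytocin receptor, had group means of 10.3 to 17.7 CPM, the orexin receptors Hcrtr1 and Hcrtr2 of 1.83 to 4.80 and 2.51 to 5.28 CPM, and the vasopressin receptor Avpr1a of 0.761 to 1.21 CPM. The thyrotropin-releasing hormone receptors Trhr and Trhr2 had group means of 7.74 to 11.4 and 2.74 to 7.28 CPM.

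No receptor passed the test after acute stress in either injection, by edgeR or DESeq2, with 2 of 7 at an unadjusted p under 0.05 with 4sU and 0 with DMSO. Over all genes edgeR called 0.269% with 4sU (0.206% higher, 0.0625% lower) and 2.51% with DMSO (1.41% higher, 1.1% lower). The median log2 difference of the 7 was 0.15 with 4sU and -0.12 with DMSO, against 0.00 and 0.02 for all genes. After chronic stress with 4sU, Hcrtr2 rose (1.05 ± 0.22, edgeR adjusted p = 0.00046). All 4 of its libraries lay above every baseline 4sU library, as in 22.2% of all genes. Oxtr fell by 0.73 (adjusted p = 9.37e-05), Mchr1 fell by 0.67 (adjusted p = 0.0126) and Trhr2 fell by 1.24 (adjusted p = 0.000716). These 1 higher and 3 lower of 7 stand beside 26.9% and 29.6% of all genes in those directions (56.5% in all), and the contrast crosses the division in 3′ UTR reads. With DMSO, chronic stress called none of the 7 by either tool, and 1 was at an unadjusted p under 0.05. Over all genes edgeR called 0% there, with 913 of 16096 at an unadjusted p under 0.05, and DESeq2 called 4 higher and 7 lower.

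The injection comparison, which shares the baseline 4sU libraries with the chronic one, also called receptors. At baseline Oxtr (0.44, adjusted p = 0.0122) and Trhr2 (0.77, adjusted p = 0.041) were higher and Hcrtr2 lower (-0.78, edgeR adjusted p = 0.0145) with 4sU. After acute stress Oxtr (0.63), Hcrtr1 (1.06), Mchr1 (0.69) and Trhr2 (1.13) were higher and Hcrtr2 was lower (-0.76), with adjusted p-values from 0.00039 to 0.0101. The 2 higher and 1 lower of 7 at baseline stand beside 21.1% and 20.7% of all genes (41.9% in all). The 4 higher and 1 lower after acute stress stand beside 23.5% and 24.8% (48.3% in all). Both comparisons cross the division in 3′ UTR reads. After chronic stress none was called by either tool, with 2 at an unadjusted p under 0.05.

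Genes that process or break down these prohormones were all detected (13 of 13 passed the filter). None was called in acute 4sU mice by edgeR or DESeq2 (0 at an unadjusted p under 0.05), and Pcsk1, a convertase that cuts prohormones, fell by 0.65 in acute DMSO mice (edgeR adjusted p = 0.00196). Pcsk1 was the 1 edgeR call of 13 there, beside 2.51% of all genes (1.1% lower). In chronic 4sU mice 4 of 13 were higher and 4 lower, near the 26.9% and 29.6% of all genes, and the contrast crosses the division in 3′ UTR reads. Those with the smallest p included Pcsk1n, an inhibitor of that convertase, which fell by 1.38 (adjusted p = 1.03e-10), Chga, a granule protein, which fell by 0.52 (adjusted p = 3.1e-07), and Lnpep, a peptidase that degrades oxytocin and vasopressin, which rose by 0.82 (adjusted p = 8.8e-05). In chronic DMSO mice none was called by either tool, with 0 at an unadjusted p under 0.05.

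Of 14 other hypothalamic peptides (among them Agrp, Pomc, Gnrh1 and Cartpt) 6 passed the filter, and the mean of these 6 was 1.01 to 1.17 log2 CPM in chronic 4sU libraries against 0.826 to 1.23 in baseline 4sU. In chronic 4sU mice Gnrh1, the gonadotropin-releasing hormone precursor, rose (1.09, edgeR adjusted p = 0.0109) and Pomc, the melanocortin precursor, fell by 0.655 (adjusted p = 0.0312). These 1 higher and 1 lower of 6 stand beside 26.9% and 29.6% of all genes, and the contrast crosses the division in 3′ UTR reads. Cartpt, the precursor of the CART peptide that many Pmch neurons also make, fell by 0.86 in acute DMSO mice (adjusted p = 0.0482). It was the 1 call of 6 there, beside 2.51% of all genes (1.1% lower).

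In chronic 4sU mice 6 of 13 hypothalamic transcription factors were higher and 2 lower, where 26.9% and 29.6% of all genes were. The higher ones included the homeobox genes Lhx1 (3.19, edgeR adjusted p = 2.83e-06) and Lmx1b (2.88, adjusted p = 8.09e-06). Otp and Arnt2, which with Sim1 specify the neurosecretory Avp and Oxt neurons, were the 2 lower ones (-1.15, adjusted p = 0.0267, and -0.33, adjusted p = 0.000151). Sim1 itself stood at 0.93 (adjusted p = 0.0947). Otp and Sim1 were named after their values were seen. The whole list's median was 0.58, against -0.02 for all genes. The chronic 4sU contrast crosses the division in 3′ UTR reads. Between injections at baseline, also across it, 2 of 12 factors were called higher and 3 lower with 4sU (21.1% and 20.7% of all genes). After acute stress 3 were higher and 4 lower (23.5% and 24.8%). After chronic stress, where injections lie on the same side, 0 of 13 were called. None of the list passed edgeR's test in acute 4sU, acute DMSO or chronic DMSO mice, with 0, 2 and 1 at an unadjusted p under 0.05 and 0, 1 and 0 called by DESeq2.

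The genes whose levels followed each peptide most closely over the 26 libraries were named by the highest Pearson r of log2 CPM. For Pmch these were Slc17a6 (r = 0.823), the vesicular glutamate transporter of subcortical neurons and a member of the thalamic list, Hcrt (0.786), Barhl2 (0.754), Parvb (0.751) and Mab21l1 (0.736). Slc17a6 had a mean of 45.1 ± 11.4 CPM in chronic 4sU libraries (SD, n = 4) and group means of 19.2 to 34.8 CPM elsewhere. For Hcrt they were Pmch (0.786), Nxph1 (0.683), Barhl2 (0.661), Gpx3 (0.652) and Sim1 (0.616). Pmch and Hcrt were thus each among the nearest genes of the other and shared Barhl2.

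Avp was followed by Tmem130 (r = 0.899), Pnmal2 (0.859), Spire2 (0.834), Sv2a (0.83) and Dner (0.826), and 19 genes had an r over 0.8. The nearest genes of Oxt were Surf6 (0.728), Chrna2 (0.727), Iglon5 (0.727), Tekt5 (0.726) and Adgrg1 (0.722). For Trh they were Kcnip1 (0.749), Taco1 (0.702), Pgap2 (0.697), Ndrg2 (0.668) and Dnajb2 (0.656). No gene outside the 5 appears in the lists of more than 1 of these 3 peptides. Library, depth and the division described above are shared by all points.

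Labelling by 4sU could be tested for 1 of the 5 genes, Trh. Over all genes the T-to-C rate was 0.0527 ± 0.0107% of covered T positions in 4sU libraries (SD, n = 14) and 0.0255 ± 0.00253% in DMSO libraries (SD, n = 12). Pmch had 4 conversions in 6810 covered T positions with 4sU (0.0587%, exact 95% interval 0.0160 to 0.15%) and 0 in 879 with DMSO (upper limit 0.419%). Only 2 of 9 4sU and 0 of 3 DMSO libraries with at least 100 covered T positions had a conversion, too few for a test of Pmch to separate them. The Parpbp interval, on the other strand over the last Pmch exons, held 4452 reads with 4sU and 738 with DMSO, against 422 and 58 in the Pmch interval. Its rate was 0.0135% with 4sU (22 of 162587) and 0.0401% with DMSO (11 of 27422). The interval is on the Parpbp strand while its reads followed the Pmch counts, so this rate gives no measure of labelling for either gene. Labelling of Pmch was therefore not tested. Intervals cover counting error only.

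Trh, with more 3′ UTR reads, had 19 conversions in 9041 covered T positions with 4sU (0.210%, exact 95% interval 0.127 to 0.328%) and 5 in 11416 with DMSO (0.0438%, 0.0142 to 0.102%). A conversion was seen in 6 of 13 4sU and 4 of 12 DMSO libraries with at least 100 covered T positions. The mean of the library rates was 0.377 ± 0.847% with 4sU (SD, n = 13) and 0.0571 ± 0.0889% with DMSO (SD, n = 12; permutation p = 0.0975, two-sided, adjusted p = 0.195 over 2 genes). Baseline 4sU library 1 alone held 8 of the 19 conversions in 257 covered T positions, and without it the difference of means was 0.0924 percentage points (permutation test, adjusted p = 0.374). The adjusted values count Pmch as the second gene. Hcrt, Avp and Oxt had no library with 100 covered T positions, so no rate is given.

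In auditory cortex, 4 of the 5 peptides were at 23 counts or fewer in all but 1 library, which was singled out after its values were seen. Counts there are per transcript and were not scaled with the amygdala counts, so no test spans the tissues. With 4sU, cortex libraries 1 to 3 (9702616 to 13539231 counts in the 6 libraries) had 2, 2 and 2 Pmch counts, 0, 0 and 0 for Hcrt, 23, 14 and 6 for Avp and 6, 4 and 0 for Oxt. Without 4sU they had 0, 174 and 2 for Pmch, 0, 3 and 0 for Hcrt, 4, 1587 and 14 for Avp and 1, 156 and 0 for Oxt. Library 2 without 4sU held far more Pmch, Avp and Oxt than the other 5, at 14.3, 130.4 and 12.8 CPM. These were 69.4, 65.2 and 24.6 times the next highest library. Genes with several transcripts can have few counts in this table (Fkbp5, with 10, had 0 to 2), and Hcrt has 2 transcripts while the other 4 have 1 each, so its 0 counts cannot be set beside theirs.

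Trh was present in all 6 cortex libraries, with 22, 84 and 83 counts with 4sU and 118, 84 and 31 without, or 1.91 to 9.78 CPM, and library 2 without 4sU was not high for it. Of 18 hypothalamic transcription factors 4 had no count in any cortex library and 6 were highest, or tied at the highest, in library 2 without 4sU, against 0 to 3 in each other library. The mean of the 18 was -1.09 log2(CPM + 0.1) there and -2.14 to -1.80 in the others. Examples, chosen after their values were seen, were Sim1 with 12 counts (0 to 2 in the others), Otp with 14 (0 to 5) and Hmx3 with 12 (0 in the others). Others had no high count in it, such as Nkx2-1 with 1 count (up to 5 elsewhere) and Lmx1b with 13 (up to 19), and Rax and Nr5a1 had 0 counts in every library. Nkx2-1 and Nr5a1 have 2 transcripts, Lmx1b 3 and Rax 4, against 1 for Sim1 and Hmx3. Their low counts therefore cannot be set beside those of Sim1 and Hmx3. The mean of the 14 other hypothalamic peptides was -2.36 there, inside the -2.64 to -2.28 of the other libraries. Of these 14, 4 had no count in any cortex library, and some have several transcripts (Pomc 5, Kiss1 6).

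**Figure D5:**
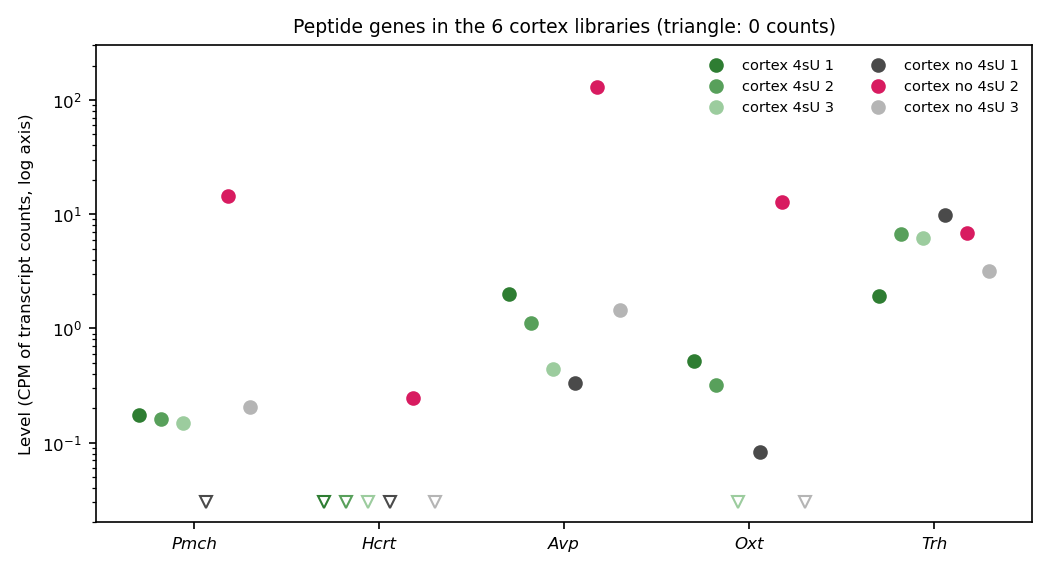
Level of the 5 peptide genes (CPM of transcript counts, log axis) in the 6 auditory cortex libraries. Points are libraries and open triangles mark 0 counts. Library 2 without 4sU lies at 14.3 CPM for Pmch, 130.4 for Avp and 12.8 for Oxt, with every other library at 2.00 CPM or less for these 3 genes, while Trh is at 1.91 to 9.78 CPM in all.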

How the data were processed

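The members and gene lists were chosen with earlier results of these data known. The authors deposited whole-number exon counts per gene symbol for the amygdala (mm10), counts per transcript for the cortex, and counts of reads, covered T positions and T-to-C conversions per 3′ UTR interval (per the file headers, slamdunk 0.4.3 wrote this last kind). Tools listed in the submitters' processing notes, with no role given, are featureCounts 2.0.1, SAMtools 1.9, HISAT2 2.1.0 and cutadapt 3.1. Whether counting used strand, or reads with multiple matches, is not given in the sources used. The exon tables also give gene length in bases (another deposited value), used for levels per kb. The 2 amygdala tables share 9 baseline columns, which differed in 0 values.

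Counts were fitted with edgeR 4.0.16 in R 4.3.3 (TMM, filterByExpr with a minimum count of 10, robust quasi-likelihood), 4 groups to a fit, 15995 genes for acute and 16096 for chronic, after a test on simulated data. Levels are CPM on TMM-scaled library sizes of all 6 groups (log2 with a prior count of 2). Cortex transcripts were joined to genes by at least 50% overlap on the same strand. Conversion rates were compared with permutation tests (100000 resamples or exact, SciPy 1.17.1). Alternatives included DESeq2 1.42.0. Named genes are the 5 members, the 5 genes nearest each (predicted genes left out), all receptors and up to 4 of each other list with the smallest p. The result of 1 listed gene is not reported here.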

Additional observations from a re-analysis of the deposited data

Results flagged for a closer look

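Within groups, Hcrt in acute DMSO library 5 (1.49 CPM) and Avp in acute 4sU library 2 (37.7 CPM) lay far from the other libraries of their group, by Dixon's test at 95%. These are 2 of 25 groups of peptide levels so tested, and chance flags about 1 in 20. In auditory cortex, library 2 without 4sU had 14.3 CPM of Pmch, 130.4 CPM of Avp and 12.8 CPM of Oxt, each more than 10-fold above every other cortex library, a margin set after the values were seen.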

How the results depend on the processing

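Hcrt and Oxt rest on few reads, and acute 4sU library 2 holds 29.6% of the Avp counts, so a single library moves their values. Reads shared between Pmch and Parpbp could not be separated. Apart from fits without 1 library, 289 of 302 recomputed values kept their direction and side of the threshold where tested, and otherwise moved by less than the spread between libraries. With 3′ UTR reads, Pmch in chronic 4sU mice was 3.62 and Pmch for 4sU against DMSO after acute stress turned from -0.88 to 0.51 (edgeR adjusted p = 0.586), and Trh in chronic 4sU mice turned from -0.23 to 0.15; Hcrt, Avp and Oxt failed the filter there. Without the libraries low in glutamatergic markers (chosen after seeing the data), Pmch, Hcrt and Oxt in chronic DMSO mice were 0.45, -0.03 and -1.95, and Avp for 4sU against DMSO after acute stress was 1.96 (adjusted p = 0.0617). With no filter the baseline injection differences were 1.81 for Avp (edgeR adjusted p = 0.0522) and 2.37 for Oxt, with more genes tested. DESeq2 gave 5.17 for Pmch and 6.25 for Hcrt between injections after chronic stress, where edgeR and DESeq2 differed in their calls and nothing is read from either. A prior count of 0.5 gave a spread of 1.72 for Hcrt and 1.49 for Oxt. The cause of these shifts was not tested beyond what each alternative changes.

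Replicate numbers did not pair the libraries: of 58 same-numbered pairs 12 had a correlation of deviations over 0.1 (-0.425 to 0.355). With the replicate block, Trh for 4sU against DMSO after acute stress was -0.78 (adjusted p = 0.0151) and Hcrt after chronic stress 6.16. No edgeR call between injections was lost with it.

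Leaving out 1 library at a time gave these ranges where a sign or call changed or a value moved beyond the spread: acute 4sU against baseline, -0.30 to 1.18 for Avp and -0.65 to 0.16 for Trh; chronic 4sU, -0.41 to 0.39 for Trh and -1.02 to 0.08 for Oxt; chronic DMSO, 0.45 to 2.99 for Pmch, -0.03 to 0.92 for Hcrt and -1.94 to -0.02 for Oxt. Between injections at baseline they were 1.40 to 2.04 for Avp, 1.82 to 3.08 for Oxt and -0.08 to 0.73 for Trh, after acute stress -0.95 to -0.68 for Trh, and after chronic stress 4.63 to 6.85 for Pmch, 5.49 to 6.5 for Hcrt and -0.33 to 0.02 for Trh. The spread of Trh ranged from 0.37 to 0.54. Trh at baseline turned to -0.08 without baseline 4sU library 2, and after chronic stress to 0.02 without chronic DMSO library 1. Each of the 5 peptide genes has 1 interval of 3′ UTR, so no choice between intervals was made for them.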
